A study of Mus musculus with 2208 samples.

Results

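Microglia that carried transcripts of cell division were compared between 1 and 2 weeks after induction of p25 in CK-p25 mice, to see whether dividing cells carry interferon and late activation genes. A cell was counted as cycling when at least 2 of 6 cell cycle genes, Top2a, Mki67, Cdk1, Rrm2, Tk1 and Ccnb1, were at 1 FPKM or more (FPKM, fragments scaled to transcript length and library size). The cells were thus chosen by the measured values of these 6 genes. Of 519 usable cells of CKp25 mice at these 2 time points, 95 met this rule, 64 of 264 at 1 week and 31 of 255 at 2 weeks, out of 2003 usable cells in the whole series. The series holds single hippocampal cells sorted for the surface proteins CD11b and CD45 from CKp25 mice and CK control littermates before induction and 1, 2 and 6 weeks after it. The 1-week group was 3 CKp25 mice aged 3 months and 1 week, and the 2-week group was 3 CKp25 mice aged 3 months and 2 weeks. Each mouse gave 96 wells.

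In the CK-p25 model, forebrain neurons make p25, a truncated protein that activates Cdk5, from a CamKII-driven transgene system controlled by doxycycline, and neurons are lost in the weeks that follow. The transgene is driven in neurons and not in the microglia measured here. All cells compared came from induced CKp25 mice, so both groups carry the transgene and differ in the time since induction and by 1 week of age. No uninduced or CK mouse enters the test, and CK values are given as background.

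Microglia are the resident macrophages of the brain and can divide locally when neurons are damaged. Type I interferons signal through a cell surface receptor to transcription factors that bind interferon-stimulated response elements in promoters and switch on antiviral genes. Genes such as Axl, Apoe, Cst7 and Clec7a are known from microglia around damaged neurons or plaques and are called late activation genes here. DNA replication genes are used in S phase, and mitosis genes such as Ccnb1 and Top2a peak in G2 and M phase.

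At 1 week 19, 24 and 21 cells of mice 1 to 3 were cycling, and at 2 weeks 11, 16 and 4 cells were. These were 24.3% ± 2.89 of usable cells at 1 week and 11.5% ± 5.44 at 2 weeks (mean ± SD, n = 3 mice each). The same rule found 4 cells in CK mice at 1 week and 3 at 2 weeks, and 2 in CK mice and 4 in CKp25 mice before induction. Since the rule chose the cells, their number is given without a test. The 2-week group was weighted towards cells near the limit of the rule. Exactly 2 rule genes, the least that qualifies, were found in 11 of the 64 cycling cells at 1 week and 13 of the 31 at 2 weeks. Between 4 and 6 rule genes were found in 48 and 15 cells. Just outside the rule, with 1 rule gene, stood 39 cells at 1 week and 46 at 2 weeks. In the 2-week mouse 3, all values rest on 4 cells, of which 1 carried more than 3 rule genes.

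**Figure D1:**
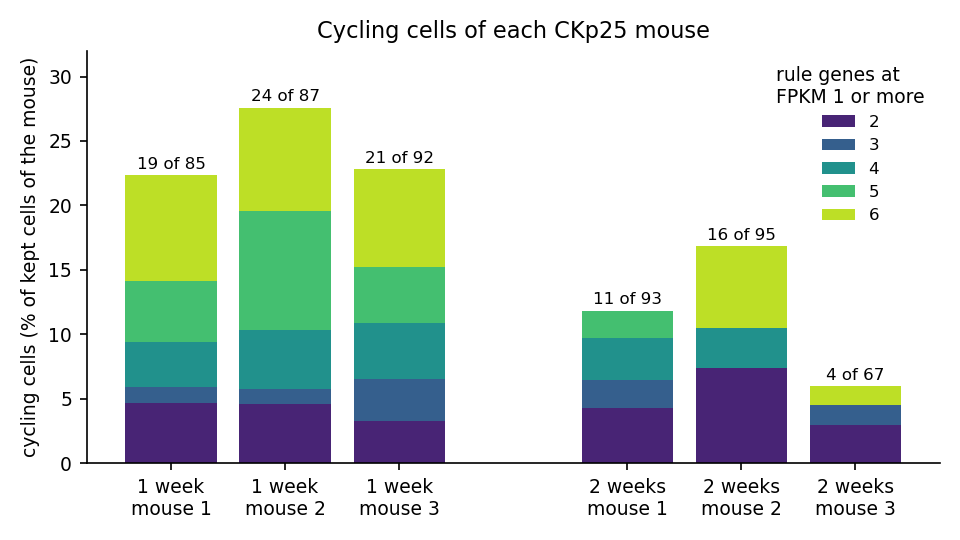
Cycling cells as a percentage of the usable cells of each CKp25 mouse (y axis) at 1 and 2 weeks (x axis), stacked by the number of rule genes at 1 FPKM or more, with the number of cycling and usable cells above each bar. The bars stand at 22.4%, 27.6% and 22.8% at 1 week and at 11.8%, 16.8% and 5.97% at 2 weeks, and cells with 2 rule genes (darkest part) take a larger part of the bars at 2 weeks.

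The rule genes themselves, which set the choice of cells, were lower at 2 weeks for the G2 and M phase members. The level of a gene in a mouse is the mean over its cycling cells of log2(FPKM + 1). Ccnb1, the cyclin that drives entry into mitosis, had levels of 4.54, 4.54 and 3.92 in mice 1 to 3 at 1 week and 1.84, 2.80 and 0.39 at 2 weeks. Mki67, the proliferation marker Ki-67, had levels of 3.78, 4.33 and 4.18 at 1 week and 2.25, 2.59 and 1.61 at 2 weeks. Top2a, the topoisomerase that untangles chromosomes, had levels of 5.68, 5.81 and 5.83 at 1 week and 4.01, 4.59 and 3.05 at 2 weeks. For these 3 genes and for Cdk1 (4.93, 5.04 and 4.76 against 4.49, 4.02 and 2.97), every 2-week mouse lay below every 1-week mouse. That order held for 12.6% of the 8763 genes tested further on. Rrm2 and Tk1, which make building blocks of DNA, overlapped between the weeks. Tk1 had levels of 5.19, 4.92 and 5.34 at 1 week and 3.23, 4.34 and 6.22 at 2 weeks, and Rrm2 had 5.42, 4.06 and 4.00 at 1 week and 2.86, 5.08 and 2.53 at 2 weeks. All 6 values per gene are descriptions, because these genes chose the cells.

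The promoters of Mki67 and Cdk1 are shown because the rule rests on such genes and they carry 2 motifs known from cell cycle promoters. The capitals mark CCAAT and the cell cycle homology region TTTGAA, on either strand, and each sequence gives the 250 bases before the transcription start in RefSeq, build GRCm38.p6, on the strand of the gene, at chr7:135716380-135716629 (minus strand) and chr10:69352913-69353162 (minus strand).
Mki67: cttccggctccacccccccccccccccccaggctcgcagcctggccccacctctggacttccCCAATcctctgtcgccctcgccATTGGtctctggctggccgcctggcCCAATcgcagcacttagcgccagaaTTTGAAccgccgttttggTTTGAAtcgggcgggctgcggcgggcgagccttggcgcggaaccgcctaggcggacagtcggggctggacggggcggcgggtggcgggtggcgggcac
Cdk1: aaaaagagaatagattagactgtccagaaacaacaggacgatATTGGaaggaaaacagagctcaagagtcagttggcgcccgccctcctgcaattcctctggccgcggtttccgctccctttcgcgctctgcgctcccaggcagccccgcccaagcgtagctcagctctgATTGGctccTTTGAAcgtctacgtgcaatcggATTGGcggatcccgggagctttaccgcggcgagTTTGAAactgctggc
In the window from 250 bases before to 50 bases after the start, TTTGAA was found on either strand for 3 of the 6 rule genes (Top2a, Mki67 and Cdk1), against 20.2% of 27025 genes with a promoter in the table and 17.9% of its 32851 promoters. CCAAT was found for 5 of the 6 (not in this window of Tk1), against 41.1% of genes and 37.4% of promoters. A match of letters is not a measured binding site.

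The cells carried the markers of microglia in both weeks. At least 3 of the 8 microglia markers were at 1 FPKM or more in all 64 and all 31 cycling cells, and Tmem119, a microglia marker, was found in 64 of 64 and 31 of 31. Of 12 lists of other cell types, 3 or more markers were found for oligodendrocytes in 2 cells at 1 week and 3 at 2 weeks, for astrocytes in 1 cell at 2 weeks, and for no other type (0 cells). The summed level of the 6 oligodendrocyte markers ranged over mice from 29.8 to 34.4 FPKM at 1 week and from 12.5 to 63.9 FPKM at 2 weeks. For monocytes it ranged from 0.440 to 39.0 FPKM and from 12.4 to 38.9 FPKM, with 4 of 8 markers in no cycling cell at 1 week and, counted separately, 4 at 2 weeks. The number of genes at 1 FPKM or more per cycling cell had mouse medians of 3395.5 ± 406 at 1 week and 3156 ± 319 at 2 weeks (mean ± SD, n = 3), against 2292 ± 344 and 2747 ± 245 in non-cycling cells. In 2 settings added after the data were seen, 12 genes rose in cycling cells with the mean number of genes per cell as a covariate, and 16 without the cells that held 3 or more markers of another type, against 17 in the test described further on. The depth behind each FPKM value is unknown, and libraries had a median of 251353 mapped reads per cell as stated for the series.

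Dividing cells did carry interferon genes at 2 weeks. For each cell, the genes of a list of 38 interferon-response genes at 1 FPKM or more were counted, and a limit of 8 genes was set at the 95th percentile of 271 cells of CK mice before induction. The limit was passed by 8 of 19, 5 of 24 and 8 of 21 cycling cells of mice 1 to 3 at 1 week (33.7% ± 11.3). It was passed by 10 of 11, 15 of 16 and 4 of 4 at 2 weeks (94.9% ± 4.65). The median cycling cell carried 7, 6.5 and 6 interferon genes in the 1-week mice and 18, 23.5 and 19 in the 2-week mice, so the mouse medians did not overlap. In CK mice the 4 cycling cells at 1 week carried 3 to 9 and the 3 at 2 weeks 3 to 7.

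The 1-week cells were mixed. Among the 64, 10 carried fewer than 3 interferon genes, while single cells of mice 1 to 3 reached 26, 31 and 22. At 2 weeks no cell (0 of 31) carried fewer than 3, and the lowest carried 8. For these pooled cells 0 of 31 allows a share of up to 9.68%. That is an approximate 95% limit from counting error alone, without differences between mice. At 2 weeks the cells with the most rule genes carried interferon genes as well. Of the cells with 4 to 6 rule genes, all 15 at 2 weeks passed the limit, with 13 to 30 interferon genes and a median of 21. At 1 week 17 of the 48 such cells did, with a range from 0 to 31 and a median of 7. Cells with 2 rule genes passed it in 11 of 13 cases at 2 weeks and 2 of 11 at 1 week. Just outside the rule, cells with 1 rule gene passed it in 43 of 46 and 6 of 39 cases, and cells with no rule gene in 161 of 178 and 18 of 161.

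**Figure D2:**
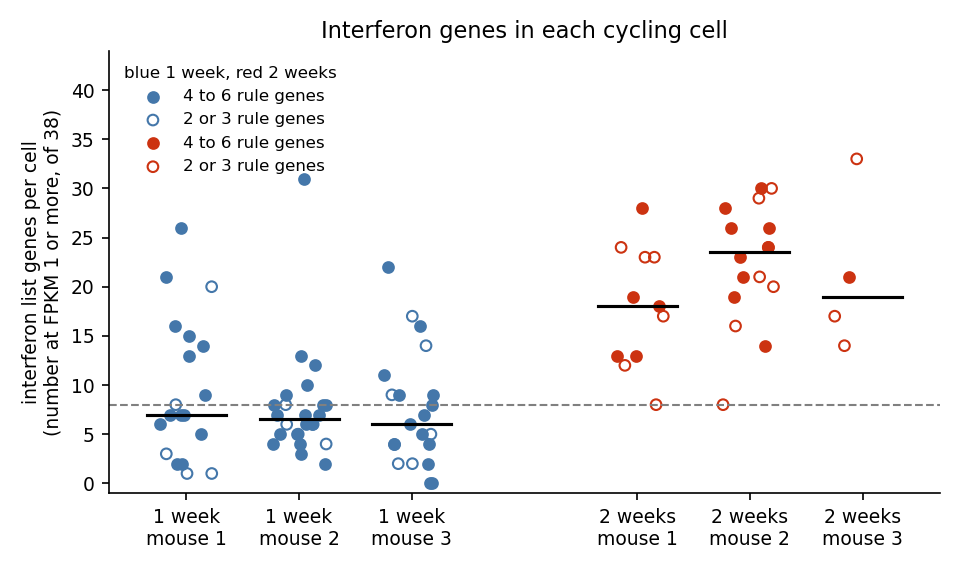
Number of interferon list genes at 1 FPKM or more (y axis, of 38) in each cycling cell (points) of the 6 mice (x axis), filled for cells with 4 to 6 rule genes and open for 2 or 3, with the median of each mouse as a bar and the limit of 8 genes as a dashed line. The medians stand at 6 to 7 genes at 1 week and 18 to 23.5 at 2 weeks, and 29 of 31 cells lie above the line at 2 weeks.

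Many cycling cells passed the limit for late activation genes already at 1 week. Of 30 such genes, the limit from the same CK cells was 15.5, and 10 of 19, 17 of 24 and 11 of 21 cycling cells passed it at 1 week (58.6% ± 10.6). At 2 weeks 11 of 11, 14 of 16 and 4 of 4 did (95.8% ± 7.22). Medians per mouse were 17, 17.5 and 16 genes at 1 week and 19, 20 and 21 at 2 weeks. Much of this list was also found without p25, with a median of 12 of the 30 genes in the 271 CK cells before induction. The 4 cycling cells of CK mice at 1 week carried 11 to 12 and the 3 at 2 weeks 14 to 18. Of these, 0 of 4 and 2 of 3 passed the limit. Both limits were passed by 17 of 64 cycling cells at 1 week and 27 of 31 at 2 weeks, and among cells with 4 to 6 rule genes by 13 of 48 and 13 of 15. Non-cycling cells of the same mice passed the interferon limit in 24 of 200 cases at 1 week and 204 of 224 at 2 weeks, and the late activation limit in 45 of 200 and 192 of 224. At 1 week cycling cells had the higher share for both lists and also more genes per cell, whose part in this was not tested. Neither limit nor count was tested, since a score over chosen genes gives no independent p.

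**Figure D3:**
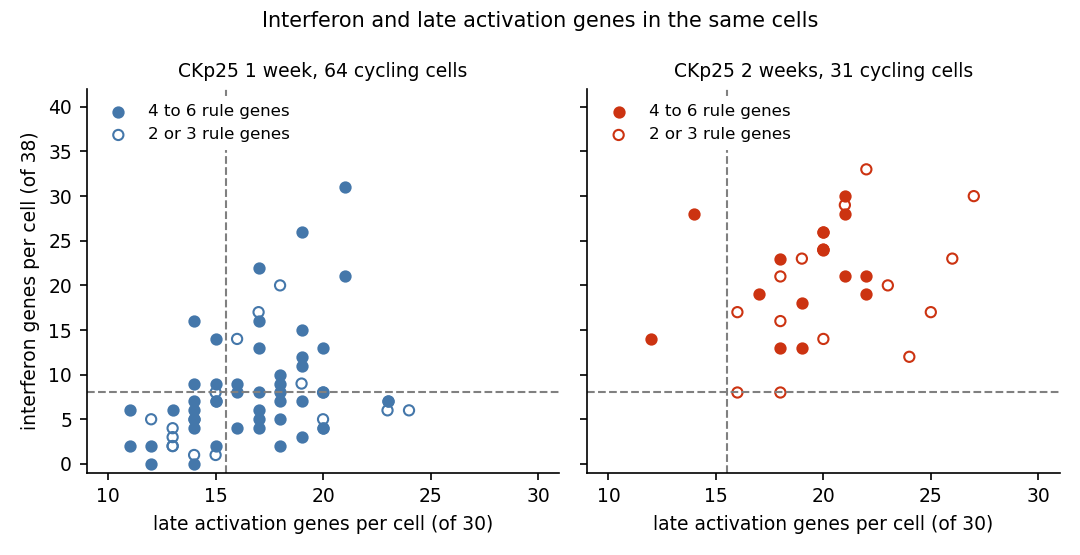
Interferon genes (y axis, of 38) against late activation genes (x axis, of 30) at 1 FPKM or more in each cycling cell at 1 week (left, 64 cells) and 2 weeks (right, 31 cells), filled for 4 to 6 rule genes and open for 2 or 3, with dashed lines at both limits (8 and 15.5 genes). Points can overlap. The upper right area holds 17 cells at 1 week and 27 at 2 weeks.

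Across all 8763 genes tested, 17 rose in cycling cells from 1 to 2 weeks and none (0) fell. limma was fitted to 1 profile per mouse (3 against 3 mice, two-sided, Benjamini-Hochberg adjusted p under 0.05), and differences are 2 weeks minus 1 week in mean log2(FPKM + 1) ± standard error. The 17 are 0.194% of the genes tested. At an unadjusted p under 0.05 stood 945 genes, of which 757 were lower, and the smallest adjusted p of a lower gene was 0.0965. The median difference of all genes was -0.27, so most genes leaned lower at 2 weeks, and with quantile normalization the median was 0.01 and 26 genes were higher and 0 lower. Of the 17 genes, 7 are in the interferon list, 4 in the late activation list and 4 in the list of MHC class I presentation, with H2-D1 and B2m in both of the last 2, and 1 is in the list of interferon-induced chemokines and GTPases. The remaining 3 are Ly6a, Trex1 and H2-Q5. Ly6a met the filter on low values, described below, only through the 2-week mice, so its call is a description. In each of the 17, all 2-week mice lay above all 1-week mice, as they did for 3.22% of all genes. The reverse order, all 2-week mice below all 1-week mice, held for 12.6% of all genes.

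Genes of the antiviral interferon response rose in cycling cells. Of 38 list genes 34 passed the filter on low values (1 FPKM or more in at least 10% of the cycling cells of at least 3 of the 6 mice), and 7 rose and 0 fell, against 0.194% and 0% of all genes. A gene that is high only at 2 weeks can pass this filter through those mice. Counts over the 34, and over the tested genes of every other list, are thus a description. Ifi27l2a, a small interferon-induced protein of mitochondria, led all genes. Its mean level in FPKM was 345, 85.0 and 27.9 in the 1-week mice and 687, 724 and 1997 in the 2-week mice, and on the log2 scale 2.90, 1.67 and 1.26 at 1 week and 8.10, 7.65 and 9.87 at 2 weeks. It rose by 6.60 ± 0.75 (limma adjusted p = 2.58e-06), and the number of cycling cells with it went from 15 of 64 to 27 of 31. In all usable cells of CK mice its log2 level was 0.25 ± 0.03 at 1 week and 0.30 ± 0.11 at 2 weeks (mean ± SD, n = 3 mice each). Among cells with 4 to 6 rule genes it was found in 13 of 48 and 13 of 15.

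Ifitm3, which blocks the entry of viruses through endosomes, had log2 levels of 3.58, 1.45 and 0.87 at 1 week and 6.15, 7.76 and 6.37 at 2 weeks and rose by 4.79 ± 0.79 (limma adjusted p = 0.00132). The mean of its FPKM overlapped between the weeks, with 422, 28.8 and 58.2 at 1 week and 372, 476 and 339 at 2 weeks, and 7 of 19 cells of the 1-week mouse 1 carried it. Rtp4, an interferon-induced inhibitor of RNA viruses, had log2 levels of 1.81, 0.23 and 0.70 at 1 week and 4.42, 5.80 and 6.26 at 2 weeks and rose by 4.58 ± 0.75 (limma adjusted p = 0.00132). It was found in 8 of 64 cells and then in 24 of 31. Ifitm3 was found in 14 of 64 and 26 of 31, so both genes went from a minority of cycling cells to most of them.

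Lgals3bp, a secreted glycoprotein that binds galectins, was already well expressed at 1 week, in 48 of 64 cells, and was in 31 of 31 at 2 weeks. Its log2 levels were 6.06, 4.01 and 4.98 at 1 week and 9.01, 9.49 and 9.06 at 2 weeks, a rise of 4.17 ± 0.63 (limma adjusted p = 0.000479). Bst2, or tetherin, which holds budding viruses at the membrane, had log2 levels of 4.76, 3.30 and 2.62 at 1 week and 6.79, 6.73 and 8.52 at 2 weeks and rose by 3.79 ± 0.74 (limma adjusted p = 0.0104). Irf7, a transcription factor of the interferon feedback loop, was found in 13 of 64 cells and then in 23 of 31, at log2 levels of 2.15, 0.67 and 0.60 at 1 week and 3.81, 5.46 and 4.85 at 2 weeks, a rise of 3.57 ± 0.73 (limma adjusted p = 0.0157). Ifi204, a sensor of DNA, went from 5 of 64 cells to 20 of 31, had levels of 0.76, 0.26 and 0.13 at 1 week and 2.60, 3.91 and 4.67 at 2 weeks and rose by 3.35 ± 0.66 (limma adjusted p = 0.0104). In the 1-week mouse 1, Bst2 had 308 FPKM, above the 215 and 248 FPKM of the 2-week mice 1 and 2, so the order of the mice depends on averaging logarithms.

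The other 27 tested interferon genes did not pass, and all 27 had a higher mean at 2 weeks, in a comparison where 30.6% of all genes did. Ifit2, which binds viral RNA, differed by 2.80 ± 0.67 (limma adjusted p = 0.0848), and Oas2, an enzyme that senses double-stranded RNA, by 2.03 ± 0.49 (limma adjusted p = 0.0873). Xaf1, a pro-apoptotic interferon target, differed by 2.64 ± 0.67 and the ubiquitin-like Isg15 by 1.39 ± 0.53 (limma adjusted p = 0.111 and 0.352). Without the 2-week mouse 1, Ifit2 and Oas2 passed (limma adjusted p = 0.0154 and 0.0178), and without the 2-week mouse 3 Oas2 did (0.0266). Isg15 was listed above 1 FPKM in only 6 of 64 and 8 of 31 cycling cells.

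**Figure D4:**
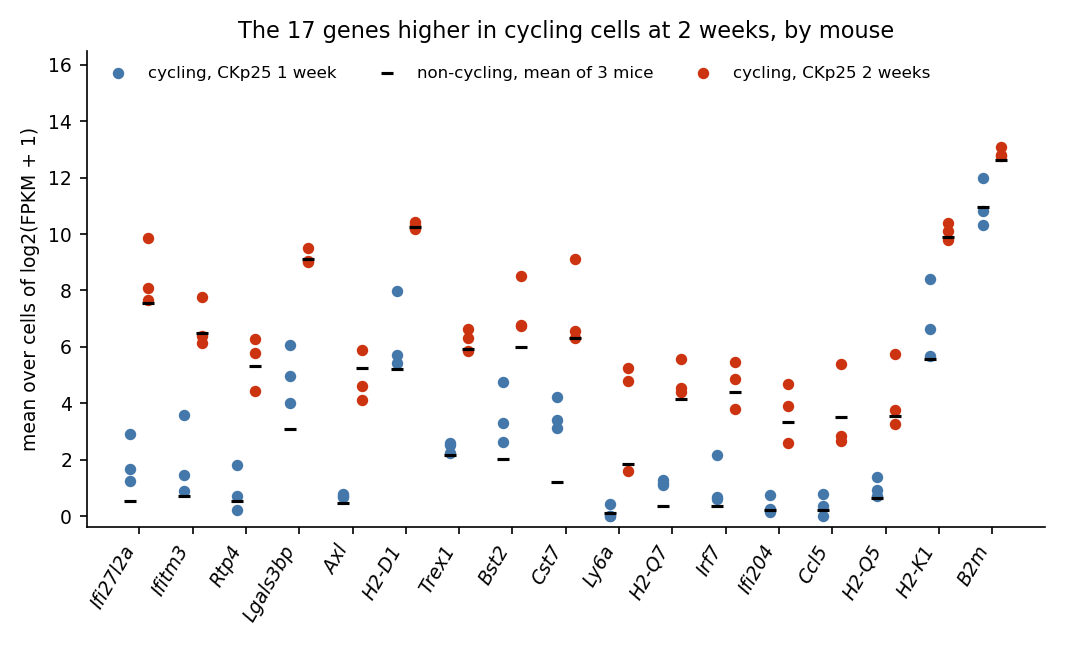
Levels (y axis, mean over cells of log2(FPKM + 1)) of the 17 genes that passed the test in cycling cells, for each 1-week mouse (blue points) and 2-week mouse (red points), with the mean of 3 mice over non-cycling cells as short black bars. Every red point lies above every blue point of the same gene, most closely for B2m, where 12.77 stands against 11.98, and most widely for Ifi27l2a, where 7.65 stands against 2.90.

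The promoters of B2m and Bst2 are shown because both genes rose and both carry GAAANNGAA (N is any base), the core of the interferon-stimulated response element, searched on both strands and marked in capitals. The sequences are the 250 bases before the transcription start in RefSeq, build GRCm38.p6, at chr2:122147437-122147686 (plus strand) and chr8:71537473-71537722 (minus strand). In Bst2, 2 overlapping matches run together.
B2m: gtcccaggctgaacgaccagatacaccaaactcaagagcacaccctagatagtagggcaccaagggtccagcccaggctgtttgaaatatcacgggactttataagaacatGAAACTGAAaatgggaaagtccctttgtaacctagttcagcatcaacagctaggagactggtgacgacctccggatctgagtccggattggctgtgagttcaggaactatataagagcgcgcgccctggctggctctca
Bst2: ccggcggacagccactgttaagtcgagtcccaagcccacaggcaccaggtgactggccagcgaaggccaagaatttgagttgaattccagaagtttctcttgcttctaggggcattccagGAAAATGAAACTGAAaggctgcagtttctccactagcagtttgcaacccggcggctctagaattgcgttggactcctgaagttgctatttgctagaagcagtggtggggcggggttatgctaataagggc
In Ifitm3, 2 matches lie just past the start, and the first 30 bases from the start at chr7:141010715-141010744 (minus strand) are shown.
Ifitm3: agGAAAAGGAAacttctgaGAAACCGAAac
A promoter was matched by symbol for 11 of the 17 genes, and 3 of the 11 held the motif between 250 bases before and 50 bases after the start. Among all genes with a promoter 9.76% held it, and among all promoters 8.56%. The cell cycle motif TTTGAA, not marked here, was likewise found for 3 of the 11, against 20.2% of all genes with a promoter. GAAANNGAA was found for 0 of the 6 rule genes. Interferon elements spelled otherwise than GAAANNGAA were not searched, so they are not in these counts.

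Of 30 late activation genes 27 passed the filter on low values, and 4 rose and 0 fell in cycling cells, again against 0.194% and 0% of all genes. Axl, a receptor tyrosine kinase for the uptake of dying cells, went from 11 of 64 cycling cells at 1 week to 26 of 31 at 2 weeks. Its levels were 8.76, 3.30 and 7.40 FPKM in the 1-week mice and 52.7, 42.9 and 75.2 FPKM in the 2-week mice, and it rose by 4.15 ± 0.70 on the log2 scale (limma adjusted p = 0.00182). In all usable cells of CK mice its log2 level was 0.05 ± 0.06 at 1 week and 0.18 ± 0.05 at 2 weeks (mean ± SD, n = 3). Among cells with 4 to 6 rule genes Axl was found in 4 of 48 and 14 of 15. Cst7, an inhibitor of lysosomal cysteine proteases, was already found in 31 of 64 cells at 1 week and in 25 of 31 at 2 weeks. Its log2 levels were 3.39, 4.21 and 3.11 at 1 week and 6.55, 6.33 and 9.12 at 2 weeks, a rise of 3.76 ± 0.76 (limma adjusted p = 0.0129). The other called members were H2-D1 and B2m, which belong to antigen presentation.

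Apoe, which carries lipids between brain cells, did not pass in cycling cells. Its log2 levels were 2.50, 5.60 and 4.59 at 1 week and 8.20, 6.16 and 8.14 at 2 weeks, with a difference of 3.27 ± 0.77 (limma adjusted p = 0.0718). All 2-week mice lay above all 1-week mice, as they did for 3.22% of all genes, but the 1-week mice spread widely. Apoe was found in 38 of 64 and 24 of 31 cycling cells. Cd52, a small surface glycoprotein, differed by 2.91 ± 0.69 and Lyz2, lysozyme, by 2.74 ± 0.69 (limma adjusted p = 0.0722 and 0.111). Plac8 was listed at 0 in every cycling cell of the 1-week mice and found in 7 of 31 at 2 weeks (limma adjusted p = 0.126). Plac8 thus met the filter on low values only through the 2-week mice, and its values are a description. Apoe passed without the 1-week mouse 2 or 3 (limma adjusted p = 0.00891 and 0.0297), and Cd52 without the 1-week mouse 1 or the 2-week mouse 3 (0.0444 and 0.0456).

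Clec7a, the receptor Dectin-1, had log2 levels of 1.51, 1.73 and 1.30 at 1 week and 4.70, 2.53 and 2.72 at 2 weeks in cycling cells and 0.27, 1.42 and 0.42 at 1 week and 4.49, 3.61 and 5.03 at 2 weeks in non-cycling cells. It rose in non-cycling cells by 3.67 ± 0.42 (limma adjusted p = 3.79e-07), and its difference in cycling cells was 1.80 ± 0.70 (limma adjusted p = 0.352). Itgax, the integrin CD11c, gave the same order, with 2.43 ± 0.27 in non-cycling cells (limma adjusted p = 2.67e-07) and 1.16 ± 0.51 in cycling cells (limma adjusted p = 0.417). The test of cycling minus non-cycling change gave -1.87 ± 0.56 for Clec7a and -1.26 ± 0.33 for Itgax, both with a limma adjusted p of 0.45, so a difference between the cell groups was not shown. Lpl, lipoprotein lipase, was found in 35 of 64 cycling cells at 1 week and 12 of 31 at 2 weeks, with a difference of -0.86 ± 0.66 (limma adjusted p = 0.662).

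Genes of MHC class I, which shows peptides from inside the cell to T cells, rose with 4 of 16 tested members, and 0 fell, against 0.194% and 0% of all genes. H2-D1 had log2 levels of 7.995, 5.72 and 5.43 at 1 week and 10.31, 10.17 and 10.43 at 2 weeks and rose by 3.92 ± 0.60 (limma adjusted p = 0.000479). H2-K1 had 8.39, 5.66 and 6.62 at 1 week and 9.79, 10.10 and 10.40 at 2 weeks and rose by 3.21 ± 0.59 (limma adjusted p = 0.0061). B2m, the shared light chain, was in every cycling cell of both weeks, with 4425, 1507 and 2021 FPKM at 1 week and 8409.7, 8812 and 8870.5 FPKM at 2 weeks, a rise of 1.86 ± 0.41 on the log2 scale (limma adjusted p = 0.0383). B2m in usable CK cells stood at 11.51 ± 0.41 and 10.84 ± 0.49 on the log2 scale (mean ± SD, n = 3). The 1-week mouse 1 held the highest 1-week level of all 3 genes. H2-Q7 had 1.11, 1.16 and 1.28 at 1 week and 4.54, 5.57 and 4.42 at 2 weeks and rose by 3.66 ± 0.71 (limma adjusted p = 0.0104). H2-Q5, which is in no list and was named after its values were seen, had 1.39, 0.92 and 0.71 at 1 week and 3.75, 3.28 and 5.74 at 2 weeks and rose by 3.25 ± 0.72 (limma adjusted p = 0.0383). The H2 genes have near-identical copies, and how reads were split among them is not known, so their single values are uncertain.

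MHC class II, used by specialised antigen-presenting cells, did not pass in cycling cells. Of 11 genes 7 passed the filter, with 0 higher and 0 lower, against 0.194% and 0% of all genes. At these shares most lists of this length would hold no called gene, so 0 calls does not set a list apart. Cd74, the invariant chain, was found in 14 of 64 cycling cells at 1 week and 9 of 31 at 2 weeks, with log2 levels of 1.91, 1.43 and 0.92 at 1 week and 2.32, 0.75 and 4.42 at 2 weeks that overlapped. In non-cycling cells it rose by 2.91 ± 0.39 (limma adjusted p = 5.32e-06). The test of the difference in change gave -1.84 ± 0.51 (limma adjusted p = 0.45). More than 4 class II genes, the limit from CK cells, were found in 14 of 64 and 9 of 31 cycling cells.

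Of the remaining called genes, Ly6a, the surface protein Sca-1, was nearly confined to 2 weeks among cycling cells. It met the filter on low values only through the 2-week mice, so its cell counts, its differences and their p-values are a description. It was found in 1 of 64 cells at 1 week, in mouse 1, and in 16 of 31 at 2 weeks, with log2 levels of 1.60, 4.80 and 5.27. Its difference was 3.75 ± 0.74 (limma adjusted p = 0.0104). In non-cycling cells it rose by 1.72 ± 0.25 (limma adjusted p = 1.65e-05), and the test of the difference gave 2.03 ± 0.75 (limma adjusted p = 0.47). Trex1, the nuclease that clears DNA from the cytosol, had log2 levels of 2.59, 2.53 and 2.22 at 1 week and 6.30, 6.63 and 5.85 at 2 weeks and rose by 3.81 ± 0.72 (limma adjusted p = 0.00864). Ccl5, a chemokine that attracts T cells, was found in 4 of 64 and 10 of 31 cycling cells, had log2 levels of 0.37, 0.77 and 0 at 1 week and 2.85, 2.67 and 5.40 at 2 weeks and rose by 3.26 ± 0.69 (limma adjusted p = 0.0245). It was the 1 called gene of 12 tested interferon-induced chemokines and GTPases, with 0 lower, against 0.194% and 0% of all genes.

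The chemokines Ccl3 and Ccl4 were found in most cycling cells of both weeks. Of 14 tested inflammatory genes 0 rose and 0 fell in cycling cells, against 0.194% and 0% of all genes. Their median difference was -0.33, near the -0.27 of all genes. Ccl3, which attracts monocytes, was found in 55 of 64 cycling cells at 1 week and 24 of 31 at 2 weeks, with log2 levels of 8.70, 7.67 and 8.59 at 1 week and 6.38, 8.28 and 4.81 at 2 weeks. Its difference in cycling cells was -1.83 ± 0.68 (limma adjusted p = 0.349), while in non-cycling cells it rose by 2.45 ± 0.49 (limma adjusted p = 0.00174) from 3.32, 5.11 and 4.73 to 6.36, 6.71 and 7.44. At 1 week the cycling cells lay above the non-cycling cells in every mouse. At 2 weeks they lay close in mouse 1, above in mouse 2 and below in mouse 3. The difference between the changes was -4.28 ± 1.05 with an interval of -6.58 to -1.98, and its limma adjusted p over all genes was 0.45.

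Ccl4, a close relative, had log2 levels of 8.90, 8.47 and 9.07 at 1 week and 7.81, 9.46 and 7.04 at 2 weeks in cycling cells, a difference of -0.71 ± 0.58 (limma adjusted p = 0.684) that was positive, at 0.87, in cells with 2000 or more genes. In non-cycling cells Ccl4 rose by 2.04 ± 0.53 (limma adjusted p = 0.0214). Ccl12, another monocyte attractant, was lower in every 2-week mouse, as were 12.6% of all genes. Its log2 levels were 8.84, 5.88 and 5.80 at 1 week and 5.31, 5.54 and 4.49 at 2 weeks. It did not pass (difference -1.73 ± 0.75, limma adjusted p = 0.406). Tnf, the tumour necrosis factor gene, was found in 43 of 64 and 19 of 31 cycling cells and had a difference of -0.76 ± 0.77 (limma adjusted p = 0.749). C5ar1, the receptor for the complement fragment C5a, had the most negative difference of this list, -2.78 ± 0.74 (limma adjusted p = 0.159), and passed without the 2-week mouse 3 (-3.32, limma adjusted p = 0.0263).

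Homeostatic genes, which mark resting microglia, were lower on average at 2 weeks. In cycling cells none of 25 tested members passed (0 higher and 0 lower, against 0.194% and 0% of all genes). Their median difference was -0.68 against -0.27 for all genes. Of the 25, 23 were negative, as were 6073 of 8757 tested genes beside the rule genes. P2ry12, a receptor for ADP, had log2 levels of 8.94, 8.97 and 7.92 at 1 week and 7.98, 8.84 and 6.70 at 2 weeks in cycling cells, a difference of -0.77 ± 0.59 (limma adjusted p = 0.656). In non-cycling cells it had 10.62, 9.37 and 10.03 at 1 week and 7.31, 8.33 and 7.39 at 2 weeks and fell by 2.33 ± 0.41 (limma adjusted p = 0.000449). In the cycling cells P2ry12 was below the non-cycling level at 1 week in each mouse, and the 2 cell groups overlapped at 2 weeks. The difference between the changes was 1.56 ± 0.56 (limma adjusted p = 0.47). Cx3cr1, the fractalkine receptor, differed by -0.72 ± 0.54 and Tmem119 by -0.63 ± 0.48 in cycling cells (limma adjusted p = 0.65 and 0.662). Gpr34, a lysophospholipid receptor, was lower in all 2-week mice, as were 12.6% of all genes. Its difference was -2.05 ± 0.56 (limma adjusted p = 0.183).

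The machinery of division itself leaned lower in the 2-week cells, and because such genes go together with the rule genes, this is a description. Of the 8757 tested genes beside the rule genes, 6073 had a negative difference, and the median was -0.27. Beside the 2 rule genes in it, the DNA replication list had 37 tested members, all with a negative difference and a median of -0.75. The mitosis list had 46 beside its 4 rule genes, 43 of them negative and a median of -0.99. Of 22 tested chromatin and histone genes all were negative, with a median of -1.03. None of the genes in these lists passed (0 higher and 0 lower), against 0.194% and 0% of all genes. Ccna2, the S and G2 phase cyclin, had log2 levels of 3.99, 4.85 and 4.20 at 1 week and 1.36, 3.78 and 1.65 at 2 weeks. Incenp, a subunit of the Aurora B complex, differed by -2.19 and Mcm6, a subunit of the replicative helicase, by -1.41. Pttg1, securin, stood on the other side with 1.65. When cells needed 4 or more rule genes, a rule added after the data were seen, the medians were -0.54 for replication and -0.16 for mitosis, and that of all genes was -0.31.

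Inhibitors of the cycle and D cyclins showed 0 higher and 0 lower of 22 tested genes, against 0.194% and 0% of all genes. Their median was -0.55. Cdkn1a, the inhibitor p21, was common in cycling cells, in 52 of 64 at 1 week and 21 of 31 at 2 weeks, against 55 of 200 and 107 of 224 non-cycling cells. Its log2 levels in cycling cells were 5.60, 5.48 and 5.60 at 1 week and 4.51, 3.10 and 5.53 at 2 weeks (difference -1.18 ± 0.74, limma adjusted p = 0.571). Ccnd1, cyclin D1, had 2.93, 2.87 and 3.40 at 1 week and 2.14, 2.38 and 1.18 at 2 weeks. It was lower in each 2-week mouse, as were 12.6% of all genes, and did not pass (limma adjusted p = 0.542).

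The non-cycling cells of the same mice gave far more calls, with 256 genes higher (2.92% of those tested) and 25 lower (0.285%), or 250 and 106 with quantile normalization and 85 and 44 with the logarithm taken after averaging. Without the 1-week mouse 3 these were 161 and 43, and the lower genes were 14 without the 1-week mouse 1, 13 without the 2-week mouse 1 and 7 without the 2-week mouse 3. The profiles rest on 200 and 224 cells, and the median standard error was 0.24 against 0.54 in cycling cells. All 17 genes called in cycling cells were among the 256, which is 6.64% of the 256. Of the 256, 213 had a positive difference in cycling cells too, and all 25 lower genes had a negative one. Among the 8757 tested genes beside the rule genes, 2684 were positive and 6073 negative in cycling cells. Both comparisons use the same mice, so their likeness is not independent. In the test of the difference itself, 0 of 8763 genes passed, the smallest adjusted p was 0.373, and 824 genes (9.40%) had an unadjusted p under 0.05. The median standard error of this test was 0.48, so it could miss differences in change of moderate size.

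For the called genes the intervals show what remained possible. The cycling minus non-cycling change was -0.45 ± 0.64 for Ifi27l2a (95% interval -1.86 to 0.96), -0.64 ± 0.36 for Axl (-1.42 to 0.15), -1.10 ± 0.65 for H2-K1 (-2.52 to 0.32) and 0.20 ± 0.36 for B2m (-0.59 to 0.99). Lgals3bp had the most negative of the 17, -1.86 ± 0.76 (-3.52 to -0.20, limma adjusted p = 0.495). Lgals3bp did not pass in this test, so a difference was not shown. Its level at 1 week was higher in cycling cells (6.06, 4.01 and 4.98) than in non-cycling cells of the same mouse (2.72, 3.76 and 2.78), and at 2 weeks the mice lay at 9.01, 9.49 and 9.06 in cycling and 9.11, 9.05 and 9.19 in non-cycling cells. Over the 34 tested interferon genes the median change was 1.94 in cycling and 2.26 in non-cycling cells. Over the 27 late activation genes it was 0.72 and 1.39, and over the 16 class I genes 1.81 and 2.06.

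**Figure D5:**
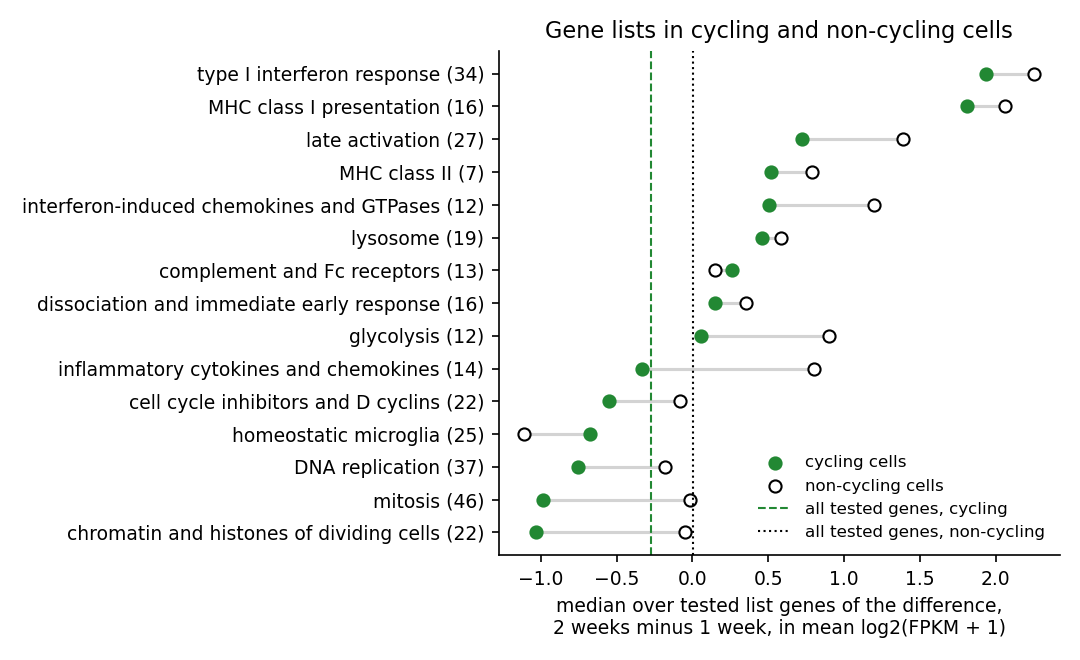
Median difference from 1 to 2 weeks over the tested genes of each list (x axis, mean log2(FPKM + 1); number of genes in parentheses) in cycling cells (green) and non-cycling cells (open), with dashed and dotted lines at the median of all tested genes (-0.27 and 0.00). Interferon and MHC class I genes lie at 1.81 to 2.26 in both cell groups, while inflammatory genes lie at -0.33 and 0.80.

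The number of calls in cycling cells changed with the averaging, the rule and the mice used. With the logarithm of the mean FPKM in place of the mean logarithm 0 genes passed, with 4 or more rule genes (added after the data were seen) 1 did (Ifi27l2a), and without the 2-week mouse 2, which holds 16 of the 31 cells, 5 did (Axl, H2-D1, Ifi27l2a, Lgals3bp and Rtp4). Without the other mice 1 at a time, 12 to 16 of the 17 passed. Without the 2-week mouse 1, 31 genes were higher, and without the 2-week mouse 3, which has 4 cells, 21 were higher and 2 lower. Of 20 alternatives, Ifi27l2a passed in 19, Axl in 18 and Lgals3bp and Rtp4 in 17, while H2-Q5 passed in 7 and B2m in 5. Each of the 17 kept a positive difference in every setting in which it was tested.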

How the data were processed

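The deposited table gives FPKM values of 23951 genes per single cell, made by the authors with Cufflinks 2.2 on mouse build mm9, per the submitters' processing notes. Hippocampal cells were sorted by fluorescence into 96-well plates and made into Smart-seq2 libraries, per the labels' protocols. No other step is given in the sources used here, FPKM keeps no read depth, and no column was left unmapped (0). Groups and mice were read from the labels. In the 1-week and 2-week CKp25 groups, the first well of each mouse (6 wells) and 51 cells with fewer than 1000 genes at 1 FPKM or more were left out, and no doublet caller was run.

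Each mouse gave a profile of cycling and of non-cycling cells, the mean over cells of log2(FPKM + 1). limma 3.58.1 (R 4.3.3, trend and robust options, 4 residual degrees of freedom, two-sided) compared 3 with 3 mice in cycling cells, in non-cycling cells and in the difference between both within a mouse. P-values were Benjamini-Hochberg adjusted over 8763 genes that were at 1 FPKM or more in at least 10% of the cycling cells of at least 3 mice, with a threshold of 0.05. limma was tested on simulated data made from these profiles. The cells, the members and all gene lists were chosen with earlier results of these data known. Genes were named as the 12 largest rises among called genes whose mice did not overlap, or as members of 15 lists or 13 marker lists. Cell counts, promoters and figures were made with Python 3.11.15, numpy 2.4.6, pandas 2.3.3 and matplotlib 3.10.9. Promoters were matched by symbol to RefSeq on GRCm38.p6, since the table holds no coordinates. Alternatives were another pseudocount (0.1), filters, averaging, normalization, weights, cell limits, plain limma, a replicate block, each mouse left out, and 3 settings added after seeing the data (4 or more rule genes, no cells with markers of another type, genes per cell as a covariate).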

Additional observations from a re-analysis of the deposited data

How the results depend on the processing

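The 17 higher genes in cycling cells became 8 without a filter on low values, 0 with the logarithm of the mean FPKM, 26 with quantile normalization, 29 with mice weighted by their cells, 7 with 3 or more rule genes, 11 in cells with 2000 or more genes, 4 with plain limma, 27 with first wells kept and 1 with 4 or more rule genes (added after seeing the data). Leaving out 1 mouse gave 5 (2-week mouse 2) to 31 (2-week mouse 1). No gene was lower (0), except 3 with weights, 1 with 3 or more rule genes and 0 to 2 with a mouse left out (2 without the 2-week mouse 3). In non-cycling cells the 256 higher genes became 101 without a filter, 85 with the logarithm of the mean, 149 with weights, 132 with plain limma and 161 (1-week mouse 3) to 259 (1-week mouse 2) with a mouse left out. The 25 lower genes there became 2, 44, 6 and 14 under the first 4 of these, 106 with quantile normalization and 7 (2-week mouse 3) to 43 (1-week mouse 3) with a mouse left out. The difference between cell groups gave 0 genes under each alternative run. Of usable cells, 20.1% were cycling at 1 week and 6.66% at 2 weeks when 3 or more rule genes were asked for, and 18.2% and 5.45% with 4 or more. Of cells with 2000 or more genes, 31.4% were cycling at 1 week. The median number of interferon genes at 1 week was 7.17 with 3 or more rule genes, 7 with 4 or more, 7.17 in cells with 2000 or more genes and 7 with first wells kept. The Ccl4 difference was 0.87 in cells with 2000 or more genes and that of Cd74 -0.46 with the logarithm of the mean. Same-numbered mice of the 2 weeks correlated at -0.063, -0.013 and 0.034 in cycling cells and at -0.12, -0.0071 and 0.066 in non-cycling cells. With 3 mice per week such values cannot show whether same-numbered mice share a batch. A replicate block gave 30 higher and 0 lower genes in cycling, 304 and 48 in non-cycling cells and 0 for the difference. The cause of these shifts was not tested. Depth is unknown, so counts of genes per cell could not be set to 1 depth.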

Other observations

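The lists of lysosome, complement, glycolysis and immediate early genes gave 0 calls in cycling cells by limma, where 0.194% of all genes were higher and 0% lower at the same adjusted threshold. Of 19 tested lysosome genes 0 rose and 0 fell, with a median difference of 0.46 against 0.59 in non-cycling cells. All 2-week mice lay above all 1-week mice for 4 of the 19 genes and below them for 3, against 3.22% and 12.6% of all genes. Ctsh, a lysosomal protease, was higher in each 2-week mouse (1.36 ± 0.58, limma adjusted p = 0.402). Of 13 complement and Fc receptor genes 0 rose and 0 fell, with medians of 0.26 and 0.15. C1qa, a chain of the first complement component, had log2 levels of 11.71, 10.77 and 10.81 at 1 week and 11.44, 11.38 and 11.27 at 2 weeks. Fcgr4, an activating Fc receptor, rose in non-cycling cells by 2.12 ± 0.32 (limma adjusted p = 5.18e-05) and differed by 2.08 ± 0.66 in cycling cells (limma adjusted p = 0.301).

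Of 12 tested glycolysis genes 0 passed in cycling cells, and their median was 0.06 against 0.90 in non-cycling cells. Pkm, pyruvate kinase, rose in non-cycling cells by 1.77 ± 0.48 (limma adjusted p = 0.032) and had a difference of -0.15 ± 0.63 in cycling cells, with a difference between the changes of -1.92 ± 0.90 (limma adjusted p = 0.547). Of 16 genes of the dissociation and immediate early response 0 passed, with medians of 0.15 and 0.35, and Fos, the best known of them, differed by 1.34 ± 0.79 (limma adjusted p = 0.546) in cycling cells. The medians of these 4 lists changed sign in cycling cells under some of the alternatives, from -0.05 to 0.60 for lysosome, -0.03 to 0.51 for complement, -0.23 to 0.48 for glycolysis and -0.29 to 0.53 for the immediate early response.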
